A study of Mus musculus with 4 samples.

Results

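The proteasome is the protease that degrades ubiquitin-tagged proteins, and its subunit genes are active in nearly every cell. A barrel-shaped core particle, built from alpha and beta rings, holds the proteolytic sites. A regulatory particle, made of an ATPase-driven base and a lid that removes ubiquitin, feeds proteins into the core, and activator proteins can take its place. Methylation of lysine 4 of histone H3 (H3K4) marks the nucleosomes beside active transcription start sites (TSSs) and, in its monomethylated form, enhancers.

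The genes described are the protein-coding genes of GENCODE vM1 (mm9) whose symbol begins with Psm, a letter from a to g and a digit, without Psmb8 and Psmb9. The rule found 48 of 22367 nuclear protein-coding genes. Psmd14, which has 2 gene records with the same first TSS, was counted once. The rule also took in Psmc3ip, which encodes a meiotic recombination factor and not a proteasome subunit, and Psme2b-ps, which the annotation lists as protein-coding. A promoter was compared when it held 50 or more reads in both libraries together, which 45 of the 48 genes and 12186 of all genes met.

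The series holds 4 chromatin immunoprecipitation (ChIP-seq) samples from mouse B cells, and the 2 labelled H3K4 were used, 1 from PA1-KO and 1 from PA1-WT cells. PA1 binds PTIP, and both belong to the MLL3/MLL4 methyltransferase complex. The series compares histone marks of activated B cells with and without PA1. Spleens came from mice aged 6 to 14 weeks, B cells were kept by removing those that carry CD43, and for 2 days they received LPS (25 µg/ml) together with IL-4 (5 ng/ml) or an IgD antibody on dextran (2.5 ng/ml). The labels of these 2 samples give neither the second stimulus nor the methylation state that the antibody recognises. The extent of the PA1 deletion, the cells that carry it and any pooling of mice are also not stated there. The samples labelled LPS-dex were not analysed here.

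Chromatin was digested with MNase and not crosslinked. Nuclear reads numbered 5259995 in the knockout and 5539475 in the wild-type library. Each genotype has 1 library, so genotypes were not tested against each other. Ratios divide knockout by wild-type signal and carry a 95% interval (exact conditional binomial, Clopper-Pearson) for counting error only. Levels are normalized RPM, reads per 1000000 scaled with TMM (trimmed mean of M values), in windows of equal length reaching 1 kb to each side of the TSS. The TSS used was the annotated one with the most reads. The B cell markers matched the labelled cell type, with 282 to 570 knockout and 342 to 585 wild-type reads at 8 of 8 promoters. The 7 T and NK cell marker promoters held 0 to 4 and 0 to 3 reads. In the myeloid list 7 of 8 genes were matched, with medians of 2.00 and 3.00 reads, although Cd14 held 118 and 171, and the 3 erythroid genes held up to 86 and 91. The targeted gene's own promoter had a ratio of 0.498 (0.396 to 0.624).

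Motifs were searched in the mm9 sequence from 250 bases before to 50 bases after each TSS, on either strand. TGACNNNGC, the core of the antioxidant response element that the transcription factors Nfe2l1 and Nfe2l2 are known to bind, was present at 11 of 45 proteasome promoters (24.4%), against 14.6% of 12183 promoters searched. The 150 bases before the TSS are printed for 5 members, because the H3K4 signal of the family dips at the end of this stretch. Psmb5 and Psmb6 had the highest ratios of the core beta ring, Psmd7 and Psmd9 are further members with TGACNNNGC, and Psmg4 had the second lowest ratio of all and none of the motifs searched. Capitals mark TGACNNNGC on either strand and, in Psmd7, also AAGATGGCG, a YY1 motif. The stretches lie at chr14:55236852-55237001 on the minus strand for Psmb5, chr11:70338719-70338868 on the plus strand for Psmb6, chr8:110112383-110112532 on the minus strand for Psmd7, chr5:123678049-123678198 on the plus strand for Psmd9 and chr13:34254683-34254832 on the plus strand for Psmg4, each read 5′ to 3′ in the gene's direction and ending at the base before the TSS.
Psmb5: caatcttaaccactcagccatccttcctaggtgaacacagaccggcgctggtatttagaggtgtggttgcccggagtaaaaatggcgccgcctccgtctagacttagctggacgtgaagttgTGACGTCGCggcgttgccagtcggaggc
Psmb6: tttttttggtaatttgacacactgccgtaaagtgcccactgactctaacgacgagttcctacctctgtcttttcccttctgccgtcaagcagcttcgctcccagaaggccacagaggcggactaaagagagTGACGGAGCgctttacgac
Psmd7: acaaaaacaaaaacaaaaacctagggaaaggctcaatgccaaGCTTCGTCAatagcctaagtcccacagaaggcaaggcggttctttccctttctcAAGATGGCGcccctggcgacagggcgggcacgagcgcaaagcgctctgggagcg
Psmd9: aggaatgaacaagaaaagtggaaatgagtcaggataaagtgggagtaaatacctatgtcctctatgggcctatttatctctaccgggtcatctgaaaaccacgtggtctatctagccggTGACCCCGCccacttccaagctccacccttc
Psmg4: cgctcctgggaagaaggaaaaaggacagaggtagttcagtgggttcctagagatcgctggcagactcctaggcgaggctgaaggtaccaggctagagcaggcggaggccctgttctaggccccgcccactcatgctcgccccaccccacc

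Counting positions from the TSS, with -1 as the base before it, TGACNNNGC lay at -28 to -20 in Psmb5, -19 to -11 in Psmb6, -31 to -23 in Psmd9 and, on the opposite strand, -108 to -100 in Psmd7. The other 7 promoters with this motif were those of Psma3, Psma4, Psmb2, Psmc3, Psmc6, Psmd1 and Psmd3. CCGGAAG, an ETS motif, was present at 16 of 45 (35.6%) against 18.7% of all, and AAGATGGCG at 6 of 45 (13.3%) against 3.76%. CCAAT was as common in the family (33.3%) as elsewhere (35.5%), and TATAAA was present at 2 promoters (4.44% against 5.12%), those of Psmb1 and Psmd6. The nuclear respiratory factor 1 motif was present at Psma2 and Psmg1 (4.44% against 2.02%). These matches are descriptions of the sequence. The members with TGACNNNGC had a median log2 ratio of 0.14 and the others 0.11, with median reads of 504 and 616. Psma5 (ratio 1.28) and Psmd5 (1.21) had none of the motifs searched, like Psmg4. Psmc3 (1.0) and Psmd3 (1.04) had TGACNNNGC. The printed promoters thus do not relate motif to ratio.

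Nearly all proteasome genes carried strong promoter signal in both libraries. Over the 45 promoters compared, levels ran from 23.9 to 93.4 normalized RPM in the knockout library, with a median of 57.6, and from 17.5 to 90.7 in the wild-type library, with a median of 49.6. The medians over all promoters compared were 42.6 and 42.2. Of the 45, 37 held more reads than the middle promoter of all, and 18 (40.0%) were among the upper 25.0%. The TSS lay inside an island of enrichment for 44 of 45 members (90.4% of all promoters compared); the exception, Psmd6, had an island that began 47 bp downstream. The log2 levels of the 45 members in the 2 libraries had a Pearson r of 0.957, a description that includes the GC content and TSS choice that both libraries share.

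The 3 members below the read minimum were tissue-restricted genes or a retrocopy. Psma8, an alpha subunit known from testis, held 5 knockout and 6 wild-type reads. Psmb11, the catalytic subunit of the thymic epithelium, held 2 and 2, although its TSS lies only 7296 bp from that of Psmb5 on chromosome 14. Psme2b-ps held 0 and 0, which allows up to 0.594 and 0.520 RPM (3 counts in each library), but only 27.7% of the 25-base sequences in its window occur once in the genome, so reads may not have been placeable there.

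**Figure D1:**
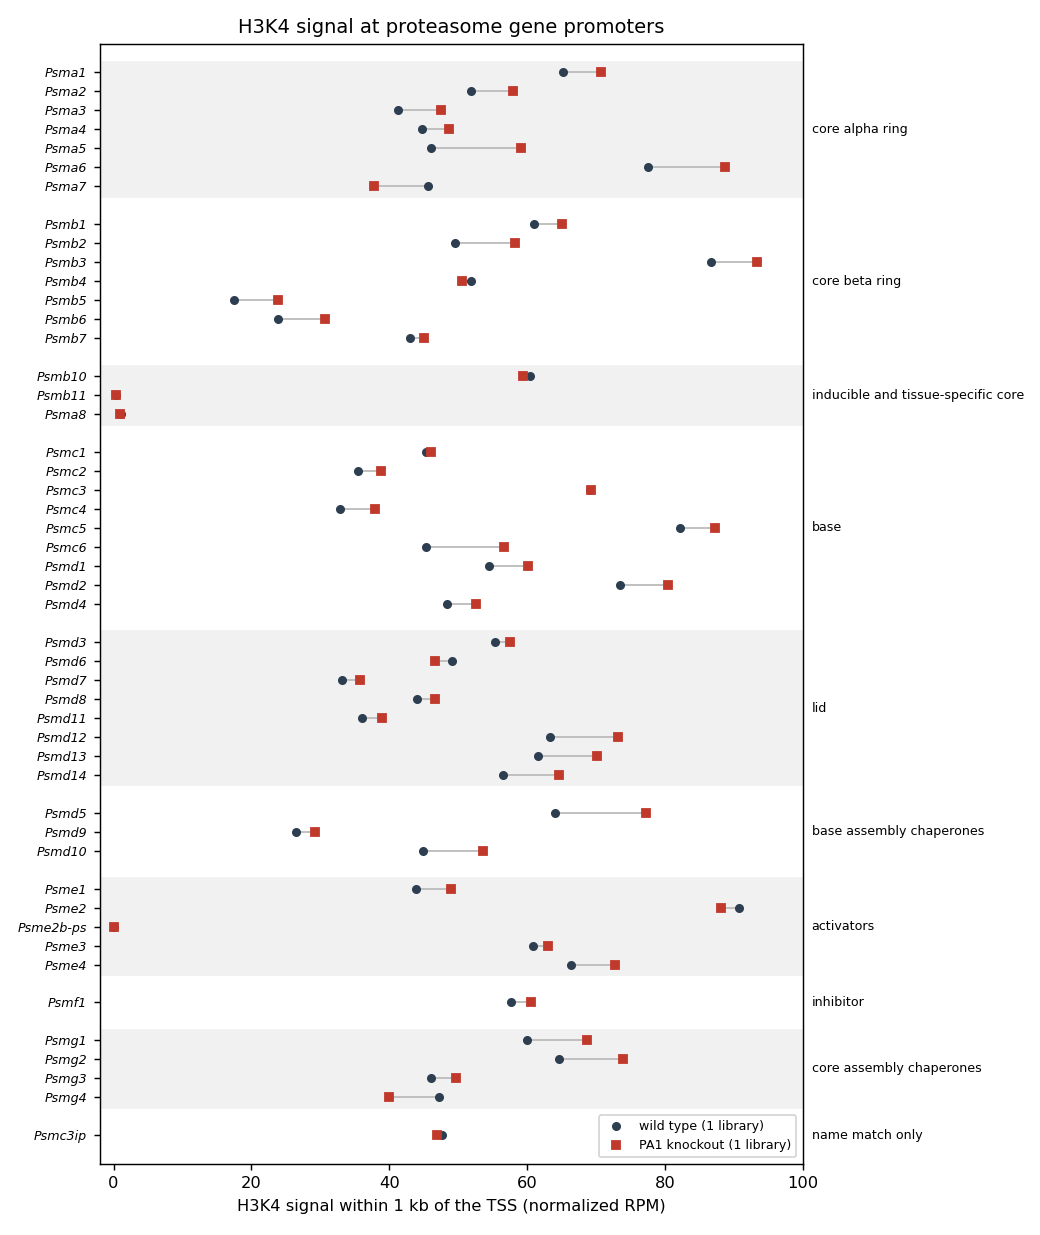
Normalized RPM within 1 kb of the TSS (x axis) for each of the 48 genes (y axis, by subunit group), with squares for the knockout and circles for the wild-type library, 1 library each. The 45 promoters compared lie between 17.5 and 93.4 RPM, while Psmb11, Psma8 and Psme2b-ps lie near 0.

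No proteasome promoter differed between the libraries past the threshold, a ratio of at least 1.5-fold in either direction with an interval that excludes 1. Of 45 members, 0 were higher, where 0.665% of all promoters compared were, and 0 were lower, where 4.90% were (5.56% in either direction). The members' ratios stayed between 0.829 at Psma7 and 1.37 at Psmb5. Scaled by TMM, 38 were above 1 and 7 below, with a median log2 ratio of 0.12 against 0.00 over all promoters, but 24 were above 1 when scaled to library totals and 4 when scaled to reads outside islands and promoters. These scalings moved the median of all promoters to -0.11 and -0.31, and since a scaling shifts every promoter alike, the family's median lay 0.12 above it on each by construction. The corrections that could move this difference gave 0.05 with the GC trend removed, 0.08 without the level trend and 0.02 without either trend. The spread among members was narrow, with the middle 50% of log2 ratios from 0.07 to 0.19, against -0.10 to 0.15 for the 9662 promoters within the members' range of reads.

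At any fold and scaled by TMM, the interval lay above 1 for 7 members, Psma5, Psma6, Psmb5, Psmb6, Psmc6, Psmd5 and Psmd10, and below 1 for 0. Over all promoters compared these shares were 10.1% and 11.4%. The count depended on the scaling and on GC content. Scaled to library totals, the interval lay above 1 for 1 member, Psma5, and below 1 for 2, Psma7 and Psmg4 (3.12% and 22.4% of all promoters compared). Scaled to reads outside islands and promoters, it lay above 1 for 0 and below 1 for 14 (0.443% and 55.9%). With the GC trend removed it lay above 1 for 1, Psmg2, and below 1 for 0 (6.29% and 7.72%).

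**Figure D2:**
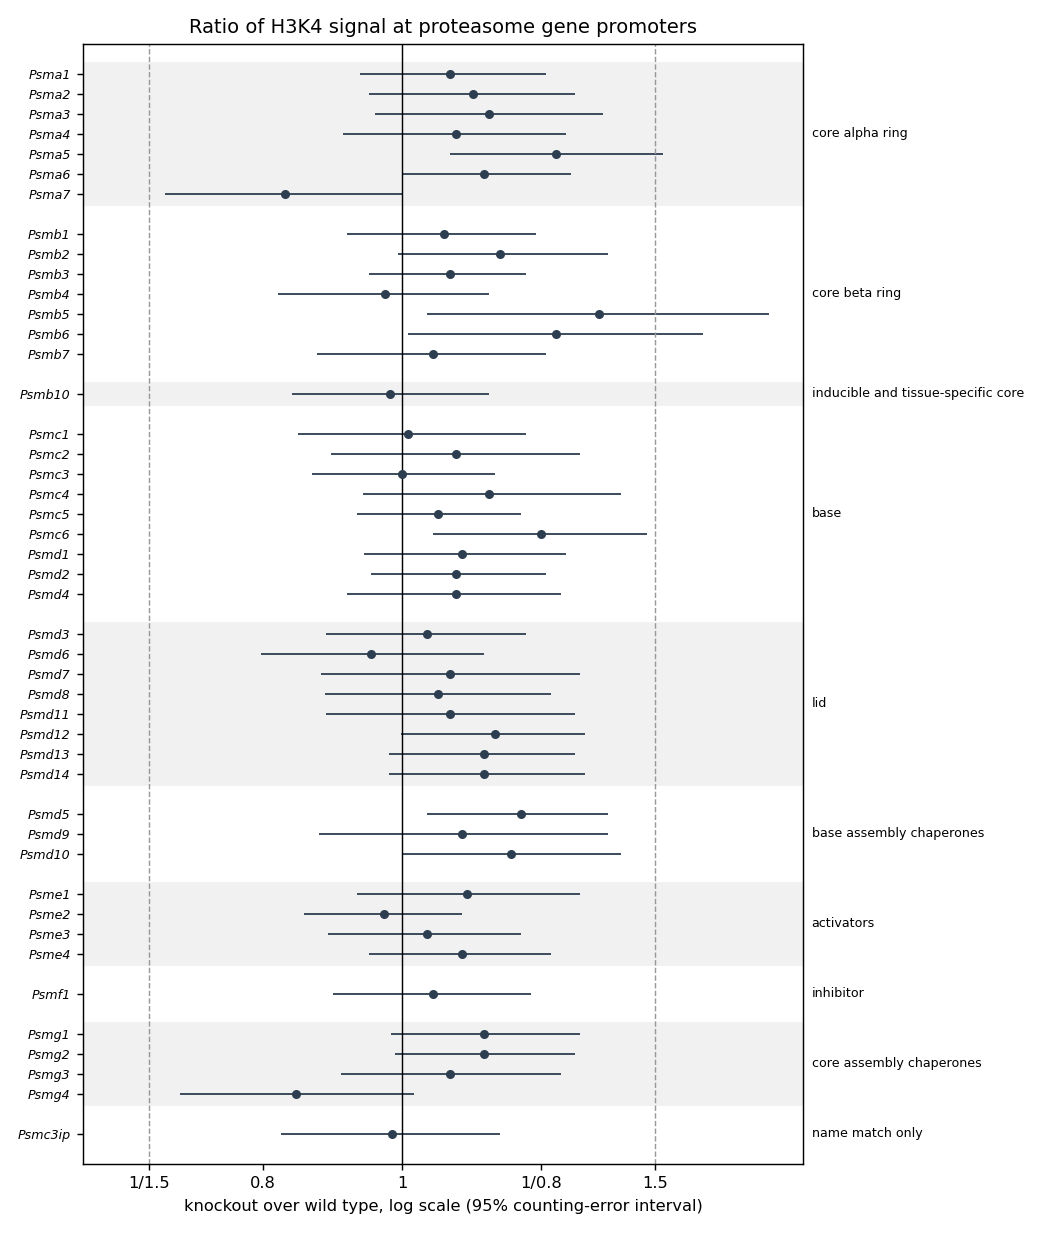
Ratio of knockout to wild type (x axis, log scale) for the 45 promoters compared (y axis, by subunit group), with 95% counting-error intervals and dashed lines at 1.5-fold in either direction. Every point lies between the dashed lines, from 0.829 at Psma7 to 1.37 at Psmb5.

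The alpha ring, which forms the gate of the core particle, and the beta ring, which carries its proteolytic sites, had almost the same ratio. Summed over 7 alpha genes, 2074 knockout and 2147 wild-type reads gave 1.10 (1.04 to 1.17), and over 7 beta genes 1854 and 1924 reads gave 1.10 (1.03 to 1.17). These values and the group ratios that follow are scaled by TMM; scaled to library totals, the core rings, base, lid and activators stood at 1.02, 1.0, 1.0 and 0.962. Psma6 (chromosome 12, TSS 56499782) had the most reads of the alpha genes, 448 and 447, or 88.7 and 77.5 RPM. Psma5 (chromosome 3, TSS 108059844) had 299 and 266 reads and the highest alpha ratio, 1.28 (1.08 to 1.52). Psma7 went the other way and was the lowest of all 45 members (chromosome 2, TSS 179777138; 191 and 263 reads; 0.829, 0.684 to 1.0). Its window had a GC content of 67.2%, where the other members compared lay between 45.0% and 57.3%, and all promoters with 65% GC or more had a median log2 ratio of -0.30 against -0.27 at Psma7. With the GC trend removed, the Psma7 ratio was 1.02. Upstream, where the TSS of Ss18l1 lies 76 bp away on the other strand, the ratio was 0.685 (0.493 to 0.945; 63 and 105 reads). Downstream it was 0.925 (0.727 to 1.17; 128 and 158 reads), and these intervals overlap. The parts of GC content and of the neighbour in the Psma7 ratio were not tested.

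The 3 beta genes that encode proteolytic subunits had overlapping intervals. Psmb5, the chymotrypsin-like subunit (chromosome 14, TSS 55236851), held 121 and 101 reads, or 23.9 and 17.5 RPM, with a ratio of 1.37 (1.04 to 1.80). Psmb6, the caspase-like subunit (chromosome 11, TSS 70338869), held 155 and 138 reads and had a ratio of 1.28 (1.01 to 1.62). These were the 2 lowest levels of the wild-type library among members and the members whose call changed with the setting, Psmb5 at 1.56 with the level trend removed and Psmb6 at 1.53 with a 500 bp window. Psmb7, the trypsin-like subunit, held 228 and 248 reads, a ratio of 1.05 (0.873 to 1.26). Of the 25-base sequences in the Psmb5 window, 83.2% occur once in the genome, and from 50 to 250 bp downstream of its TSS 20.5% do. Over whole windows this share ran from 78.0% to 100% among the 45 members compared, with a median of 95.5%. The part of mappability in the low level of Psmb5 was not tested. The structural subunit Psmb3 (chromosome 11, TSS 97564748) had the most knockout reads of any member, 472 and 500, and a ratio of 1.08 (0.948 to 1.22). Psmb4 was the lowest beta gene at 0.973 (0.820 to 1.15; 255 and 299 reads).

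Psmb10, the inducible subunit that takes the place of Psmb7 in the immunoproteasome (chromosome 8, TSS 108462292), held 300 and 349 reads, or 59.4 and 60.5 RPM. Its ratio was 0.981 (0.838 to 1.15). Of its promoter reads 96.1% lay downstream of the TSS, a share passed only by Psmd6 at 98.7%.

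The base and the lid of the regulatory particle had equal ratios, 1.09 (1.03 to 1.15) over 9 base genes and 1.09 (1.02 to 1.15) over 8 lid genes. All 9 base genes lay at or above 1.0. Psmc6, an ATPase (chromosome 14, TSS 45949504), was the highest with 286 and 261 reads, 1.25 (1.05 to 1.48). Psmc3, another ATPase (chromosome 2, TSS 90894458), was the lowest with 350 and 399 reads, 1.0 (0.865 to 1.16). The ATPase Psmc5 (chromosome 11, TSS 106117468) had the most reads of the base, 441 and 474, with a ratio of 1.06 (0.931 to 1.21). The scaffold genes Psmd1 and Psmd2 stood at 1.10 and 1.09, and the ubiquitin receptor Psmd4 at 1.09.

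In the lid, Psmd12 (chromosome 11, TSS 107340891) had the most reads and the highest ratio, 370 and 365, 1.16 (0.998 to 1.34). Psmd6 (chromosome 14, TSS 14953447) was the lowest, with 236 and 283 reads and a ratio of 0.952 (0.797 to 1.14). Psmd14, the deubiquitinase of the lid, held 327 and 326 reads, 1.14 (0.979 to 1.34). Scaled by TMM, the interval excluded 1 for 0 of 8 lid genes, 0 of 4 activators and 1 of 9 base genes. Over all promoters compared it lay above 1 for 10.1% and below 1 for 11.4%, so this count does not set the lid apart.

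The activators were close to 1, with 1379 and 1510 reads over the group and a ratio of 1.04 (0.968 to 1.12), an interval that overlaps those of the core, base and lid. With the GC trend removed the activators stood at 1.06, beside 1.04 for the core rings, 1.01 for the base and 1.03 for the lid, so the order of the groups depended on this correction. Psme1 and Psme2 encode the interferon-inducible activator and lie 12526 bp apart on chromosome 14. Psme1 (TSS 56197412) held 247 and 253 reads, 1.11 (0.931 to 1.33). Psme2 (TSS 56209938) held 445 and 523 reads, among them the most wild-type reads of any member, with a ratio of 0.971 (0.854 to 1.10). Within the Psme2 window the ratio was 0.815 (0.673 to 0.984; 192 and 269 reads) upstream, where the TSS of Rnf31 lies 607 bp away on the other strand, and 1.14 (0.951 to 1.36; 253 and 254 reads) downstream, and these intervals overlap. The nuclear activators Psme3 and Psme4 stood at 1.04 (0.888 to 1.21) and 1.10 (0.948 to 1.27). The inhibitor gene Psmf1 held 306 and 333 reads, 1.05 (0.895 to 1.23).

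Genes for assembly factors held both high and low ratios. The 3 chaperones of the base had 809 and 781 reads in all and a ratio of 1.18 (1.07 to 1.31), led by Psmd5 at 1.21 (1.04 to 1.39; 390 and 369 reads) and Psmd10 at 1.19 (1.0 to 1.42; 271 and 259 reads), while Psmd9 stood at 1.10 (0.875 to 1.39; 148 and 153 reads). The group's interval overlaps those of the core, base and lid, and its ratio was 1.10 with a 500 bp window, 1.05 with the GC trend removed and 1.02 with the GC and level trends removed. The 4 chaperones of the core gave 1.07 (0.984 to 1.16). Psmg2 had the most reads of these (374 and 373; 1.14, 0.989 to 1.32) and Psmg1 a ratio as high (347 and 346; 1.14, 0.983 to 1.33). Psmg4 (chromosome 13, TSS 34254833) was the lowest, with 202 and 273 reads, 0.844 (0.700 to 1.02). Psmc3ip, matched by name only, was at 0.984 (0.823 to 1.17; 237 and 275 reads).

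The family's median lay closer to 0 once GC content and level were taken into account. Members had a median GC content of 50.5% within 1 kb of the TSS, against 54.1% for all promoters compared. All promoters with under 50% GC had a median log2 ratio of 0.16 and the 18 members among them 0.15, while those with 50% to 55% GC had 0.04 and the 22 members among them 0.11. The 4 members with 55% to 60% GC, 3 of them activators, had 0.09 against -0.08. With the GC trend removed the members' median was 0.04, and with the GC and level trends removed it was 0.02, with 24 members above 1 and 21 below.

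**Figure D3:**
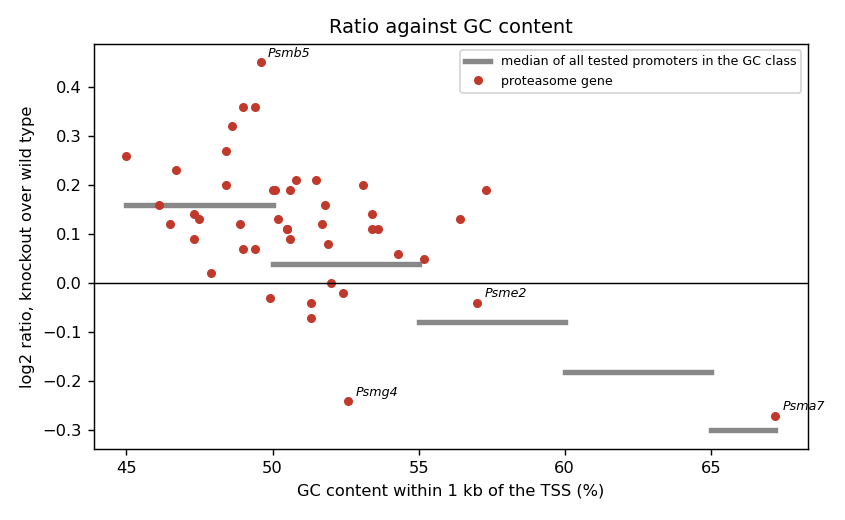
Log2 ratio (y axis) against GC content within 1 kb of the TSS (x axis) for the 45 members (points), with the median of all promoters compared in each of 5 GC classes (grey bars, the outer classes drawn to the members' lowest and highest GC content). Psma7, at 67.2% GC, lies at -0.27, next to the -0.30 of its class.

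Other genes of the pathway, outside the name pattern, were examined from a list of 22, of which 21 were matched and compared. Scaled by TMM, none was higher or lower by the threshold, where 0.665% and 4.90% of all promoters compared were. On this scale 11 had ratios above 1 and 10 below, with a median log2 ratio of 0.05. Values of these genes under the other scalings, which shift every ratio, are not given here. The extremes were Nfe2l2, which encodes the stress-response factor that can act on proteasome genes, at 0.684 (0.579 to 0.807; 232 and 387 reads), and Rps27a, a ubiquitin fusion gene, at 1.25 (1.09 to 1.42; 480 and 439 reads). Nfe2l1 stood at 1.03 (0.887 to 1.20), the core assembly factor Pomp at 0.989 (0.858 to 1.14), and the regulatory particle subunits Adrm1 and Shfm1 at 0.982 (0.815 to 1.18) and 1.19 (1.0 to 1.42).

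Around the TSS the family showed a gap flanked by a series of peaks, with most signal downstream. In 50 bp bins, the mean signal per promoter was lowest from -50 bp to the TSS, at 0.400 RPM in the knockout and 0.497 in the wild-type library. It rose to 2.39 and 2.65 from 100 to 150 bp, the first downstream peak. Further peaks followed from 300 to 350 bp, at 2.72 and 2.62, and from 450 to 500 bp, at 3.01 and 2.54. Of all reads within 1 kb of the 45 TSSs, 69.1% lay downstream (68.6% to 69.7%, exact Clopper-Pearson interval). The median share was 71.2% per member and 63.6% over all promoters compared, and it was 85.0% for the lid genes, 72.8% for the base, 70.5% for the core rings and 63.4% for the activators.

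Members with a neighbour on the opposite strand were less one-sided. An opposite-strand TSS lay within 1 kb upstream of 10 members (22.2%, against 20.3% of all promoters compared), 9 of them of a protein-coding gene. Their median downstream share was 59.2%, against 78.1% for the other 35, and their median log2 ratio was 0.12 in either set. Over all 2471 promoters compared that have such a neighbour the median share was 53.0%, against 63.6% over all promoters compared. The lower share was thus not particular to the family. The closest such pairs were Psmc2 with Dnajc2, 32 bp apart, Psmc5 with Ftsj3, 75 bp, Psma7 with Ss18l1, 76 bp, and Psmd13 with Sirt3, 99 bp. Reads in a shared window cannot be assigned to a gene.

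Psmc2, an ATPase gene (chromosome 5, plus strand, TSS 21291101), had the lowest downstream share, 17.7%. The island over its TSS, from 21289601 to 21291400, had 206 and 217 reads and reached back over the promoter of Dnajc2. A second island on the Psmc2 side, from 21291801 to 21294200, began 700 bp downstream and held 299 and 297 reads, a ratio of 1.15 (0.975 to 1.35), most of them beyond the 1 kb window. A wide gap also followed the TSS of Psmd8 (chromosome 7, TSS 29965692), where 0 reads of either library fell from 50 to 250 bp, and of Psma5, with 1 and 2 reads there. At Psmd8 100% of the 25-base sequences in this stretch are unique, against 78.0% over its whole window, the lowest of the members compared. Reads counted in the stretch can start up to 75 bp outside it, so the part of mappability was not settled.

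**Figure D4:**
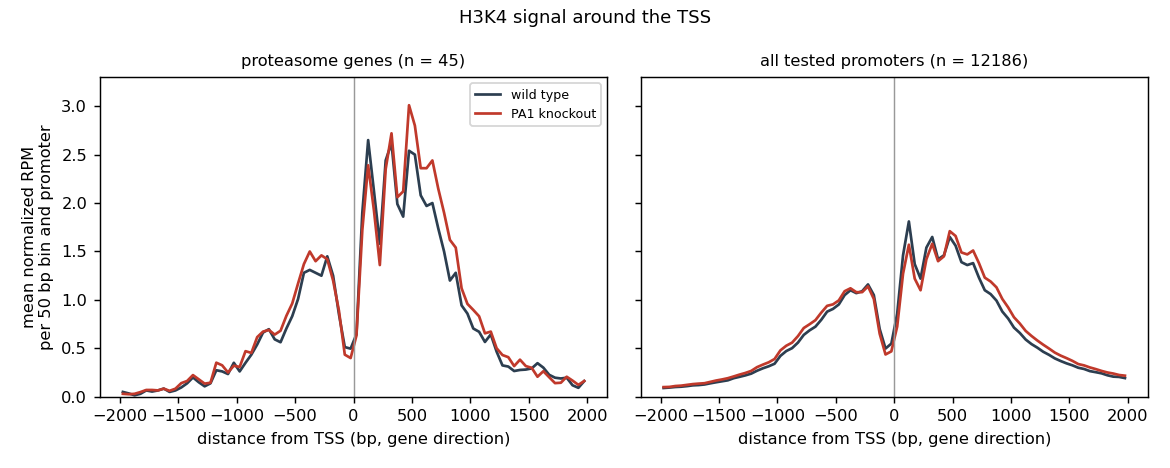
Mean normalized RPM per 50 bp bin and promoter (y axis) against distance from the TSS in the gene's direction (x axis), for the 45 proteasome genes (left) and all 12186 promoters compared (right), in the knockout (red) and wild-type (dark) library. For the proteasome genes the knockout line lies below the wild-type line at 100 to 150 bp (2.39 against 2.65) and above it at 450 to 500 bp (3.01 against 2.54).

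The ratio changed with distance from the TSS, an arrangement seen in the profile and then divided into zones. From 50 to 250 bp downstream, 1682 knockout and 2140 wild-type reads gave 0.897 (0.841 to 0.957). From 250 to 600 bp, 3965 and 4157 reads gave 1.09 (1.04 to 1.14), and from 600 to 1000 bp, 3205 and 2983 reads gave 1.23 (1.17 to 1.29). Knockout signal was thus lower next to the TSS and higher at the outer part of the downstream block when scaled by TMM; scaled to reads outside islands and promoters these ratios were 0.724 and 0.990, so the direction beyond 600 bp depended on the scaling. A scaling multiplies all zones alike and cannot change their order. The outer ratio was above the inner one for 39 of the 44 members with reads in both, the exceptions being Psmb6, Psmb10, Psmd7, Psmd10 and Psmg3, and for 75.4% of 11279 promoters of all genes.

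The same order held in the core rings, base, lid and activators. Psmb10, the only inducible core gene compared, went the other way, with 1.27 (0.829 to 1.95) in the inner zone and 0.986 (0.771 to 1.26) in the outer one. From 50 to 250 bp the core rings had 0.866 (0.765 to 0.980), the base 0.927 (0.812 to 1.06), the lid 0.953 (0.802 to 1.13) and the activators 0.883 (0.711 to 1.10). From 600 to 1000 bp these were 1.22 (1.12 to 1.34), 1.27 (1.11 to 1.44), 1.25 (1.13 to 1.39) and 1.33 (1.12 to 1.57). Over all promoters compared the inner ratio was 0.880 (0.875 to 0.884) and the outer one 1.12 (1.11 to 1.12). The inner interval of the family includes the value of all promoters, and its outer interval lies above it. The family was also above all promoters from -500 to -100 bp (1.08 against 0.998) and from 250 to 600 bp (1.09 against 1.0). An excess was thus not particular to the outer zone. From 1000 to 2000 bp the family was below all promoters, at 1.10 (1.03 to 1.18) against 1.14. GC content moved with the zones, at 63.7% from 50 to 250 bp and 44.3% from 600 to 1000 bp in the family, and 64.8% and 48.8% over all promoters; its part in the ratio was not tested. Single members gave wide intervals, such as 0.623 (0.330 to 1.14) and 1.38 (1.06 to 1.79) at Psme2, 0.767 (0.513 to 1.14) and 1.57 (1.11 to 2.23) at Psme4, and 1.0 (0.710 to 1.42) and 1.81 (1.24 to 2.68) at Psmc6.

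**Figure D5:**
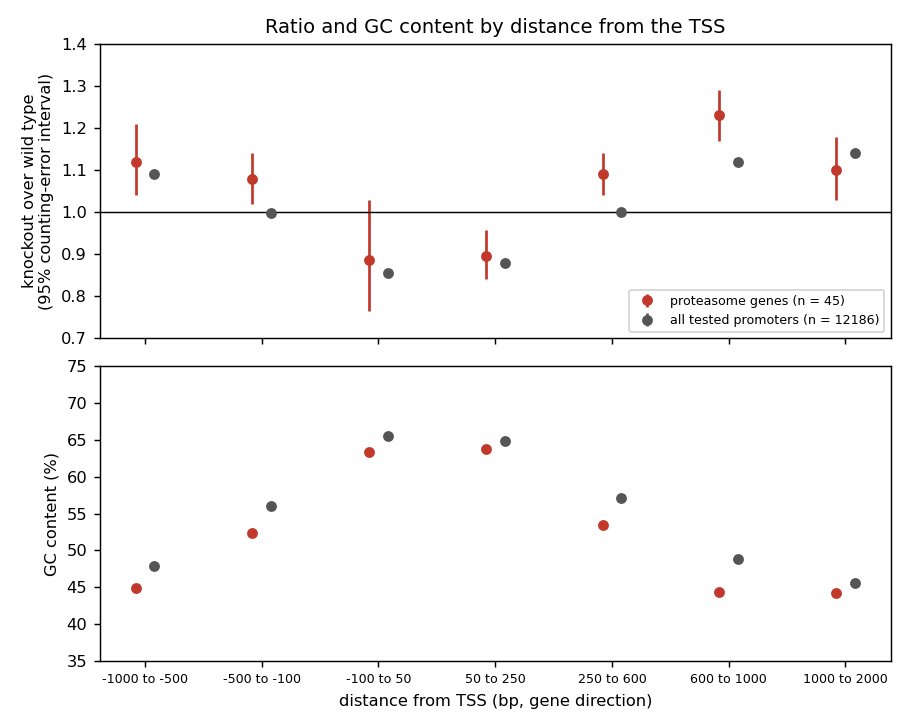
Ratio of knockout to wild type with 95% counting-error intervals (upper panel) and GC content (lower panel, percent) in 7 zones by distance from the TSS (x axis), for the 45 proteasome genes (red) and all 12186 promoters compared (grey). The ratio of the family is 0.897 from 50 to 250 bp, where GC content is 63.7%, and 1.23 from 600 to 1000 bp, where it is 44.3%.

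Annotated TSSs over 2 kb from the chosen one held up to 17.0% of its reads. The chosen TSS was the one with the most reads, so other sites were weaker by construction. The same shares over all promoters are not given here. Of the 22 members with an annotated TSS over 2 kb from the chosen one, Psma7 had the strongest other site, with 77 reads (17.0% of its promoter), followed by Psme2 with 39 (4.03%); the remaining 20 held 1 to 16 reads. The Psma7 and Psme2 sites lie 2288 and 2497 bp from the chosen TSS. Their windows reach into the island over that TSS, so these reads do not show a separate site. In the 38 members whose gene extends at least 2 kb past the point 2 kb downstream of the TSS, the promoter held a median of 153 times the gene body's signal per kb, from 13.2 times at Psmc2 to 1058 times. The Psmc2 body takes in the end of its second island, which runs to 21294200, so its value is not gene body signal alone. Over these gene bodies 1509 knockout and 1284 wild-type reads gave a ratio of 1.34 (1.24 to 1.45). All reads outside islands and promoters stood at 1.24 on the same scale. Psmd14 alone held 514 of the knockout and 336 of the wild-type gene body reads, the most of any of these genes. The summed ratio thus depends strongly on Psmd14 and does not place the gene bodies as a class above 1.24. A ratio without Psmd14 is not given here.

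Of the 4 members on chromosome 7, which also carries PA1, Psma1 lies 12.7 Mb and Psmd13 13.9 Mb from the PA1 TSS. Psma1 (TSS 121419632; 357 and 376 reads) had a ratio of 1.08 (0.935 to 1.26) and Psmd13 (TSS 148067867; 354 and 355 reads) 1.14 (0.979 to 1.32). Psmc4 and Psmd8, 105 and 104 Mb away, stood at 1.15 and 1.06. Mismatches to the reference found in knockout reads alone lay at 9 positions in the 10 Mb block of Psmc4 and Psmd8, 5 in that of Psma1 and 0 in that of Psmd13. Private positions were not limited to this chromosome: the block of Psmb5, Psmb11, Psme1 and Psme2 on chromosome 14 had 10 found in wild-type reads alone. Their part in the ratios was not tested.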

How the data were processed

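ChIP-seq libraries of 1 PA1-KO and 1 PA1-WT B cell sample were used. In the deposited files a line stands for a mapped read, with its position and strand; normalized values are not among the columns. Per the submitters' processing notes, mm9 and SICER were used by the authors, without a stated role or version. The aligner was not given in the sources used here. Each read spans 25 bases, and no position and strand was repeated within a file, so strong sites are compressed. Positions were read as 1-based, since the mismatch letters of 100% of reads with 1 mismatch then matched NCBIM37, which is mm9 under its other name.

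From these lines, 5′ ends were moved 75 bp into the fragment and counted within 1 kb of each annotated TSS of GENCODE vM1. Scaling by TMM (ratios trimmed by 30%, levels by 5%) used all 12186 promoters with 50 or more reads. Islands joined 200 bp windows with a Poisson probability under 1e-05 across gaps of up to 200 bp, with at least 20 reads. A position counted as a mismatch of 1 library when at least 3 reads there all mismatched and the other library had at least 3 reads without that mismatch. The functions were tested on simulated data. Reads amplified by PCR and lacking molecular identifiers cannot be taken as separate molecules, so intervals cover counting error only. The members, lists and motifs were chosen with earlier results of these data known. Every member could be named; full values are given for the highest and lowest ratio and the most reads in each subunit group, for members under the read minimum and for those within 25 Mb of PA1. The alternatives tried were 12 (3 scalings, 2 windows, no fragment shift, 2 read minimums, another TSS choice and 3 trend corrections by a running median of 501 promoters). Python 3.11.15, numpy 2.4.6 and scipy 1.17.1 were used.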

Additional observations from a re-analysis of the deposited data

How the results depend on the processing

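No paired analysis was possible because each genotype has 1 library, and leaving out a library was not possible for the same reason. The count of 0 lower members held under all 12 alternatives, where 1.08% to 16.7% of all promoters compared were lower. It held narrowly when scaled to reads outside islands and promoters. There Psma7 stood at 0.669 and Psmg4 at 0.682, both with intervals below 1 and close to the 1.5-fold threshold. The count of 0 higher members held under 10 of the 12 alternatives. With a 500 bp window 1 of 45 was higher (Psmb6), against 1.21% of all promoters. With the level trend removed 1 of 45 was higher (Psmb5), against 1.88%. Members compared numbered 43 with the 5′ most TSS and 47 with a minimum of 1 read. The median log2 ratio of the members moved from 0.12 to 0.01 with library totals, -0.19 with reads outside islands and promoters, 0.04 with the GC trend removed, 0.08 without the level trend and 0.02 without either trend. With library totals the summed ratios were 1.02 for the core rings, 1.0 for the base, 1.0 for the lid and 0.962 for the activators, and with reads outside islands and promoters 0.889, 0.878, 0.878 and 0.842. With the GC trend removed the core rings stood at 1.04, the base at 1.01, the lid at 1.03 and the activators at 1.06, and with both trends removed at 1.01, 0.976, 1.01 and 1.02. The downstream share was 70.5% with the 5′ most TSS. The zones were chosen after seeing the data: with library totals the ratios were 0.828 from 50 to 250 bp and 1.13 from 600 to 1000 bp, and with reads outside islands and promoters 0.724 and 0.990. Depth limits a single promoter to changes of about the width of its interval, such as 1.04 to 1.80 at Psmb5.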
